A study of Mus musculus with 8 samples.

Results

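MHC class II presentation genes encode the molecules with which antigen-presenting cells show peptides to CD4+ T cells, and 9 of them were followed here in RNA sequencing of mouse spleen CD4+ T cells. They were taken by their symbols (Cd74, H2-Aa, H2-Ab1, H2-Eb1, H2-DMa, H2-DMb1, H2-Oa, H2-Ob and Ciita) from a deposited table of 24016 genes, and all 9 were present and above the filter on low values. Monoclonal cells came from NOD.TCRab.FoxP3GFP.Rag-/- mice, in which all T cells share a single αβ T cell receptor and a Rag gene is missing. Polyclonal cells came from NOD.FoxP3GFP mice, which have a diverse repertoire. Every group has the NOD background and a Foxp3 reporter that makes GFP, and Foxp3 is the master regulator of regulatory T (Treg) cells. Reporter-positive cells are called Treg here and reporter-negative cells non-Treg, which gave 4 groups of 2 libraries, with replicates A and B. The submitters' names for the monoclonal groups are "NT Treg cells, CD4+" and "NT Non-Treg cells, CD4+", and those for the polyclonal groups have WT in place of NT. Age, sex and the number of animals are not given in the labels, and the receptor, Rag genotype and strain differ together between the mice. No label says whether replicates A and B are different animals, so p-values measure only the spread between these samples, and that spread may be technical. Mice without Rag activity make no B cells, while their dendritic cells and other myeloid cells remain.

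Class II molecules are pairs of an α and a β chain. In mice the classical pairs are I-A, built from H2-Aa and H2-Ab1, and I-E, whose β chain is H2-Eb1. The invariant chain Cd74 escorts new pairs and blocks their groove, the H2-DM pair (H2-DMa with H2-DMb1) exchanges its remnant for peptide, and the H2-O pair (H2-Oa with H2-Ob) restrains H2-DM. Ciita is the coactivator that switches the family on at promoters carrying an X box and a Y box, which bind the RFX and NF-Y complexes. Dendritic cells and B cells make class II constitutively, and mouse T cells are not known as a source of it. NOD mice make I-A but no I-E protein, because their I-E α chain gene is not expressed. Some dendritic cells of the mouse spleen carry CD4 on their surface.

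The 7 H2 members lie together on chromosome 17, between 34229324 and 34453619 on mm9, a span of 224.3 kb. Promoter windows of 300 bases (250 before to 50 after a transcript start, RefSeq on GRCm38.p6, the C57BL/6J reference and not the NOD sequence) were used for 6 of the 9 members. H2-Ab1, Ciita and Cd74 are named only. The stretches below show the X and Y box region, the feature that the windows of 5 members share. Capitals mark GNAAC, part of the X box, and TGATTGG, the core of the Y box. These letters were chosen after the sequences had been seen.
H2-Aa: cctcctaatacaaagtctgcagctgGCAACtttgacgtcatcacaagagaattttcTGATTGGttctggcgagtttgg
H2-Eb1: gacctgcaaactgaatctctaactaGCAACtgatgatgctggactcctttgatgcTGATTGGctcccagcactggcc
H2-DMb1: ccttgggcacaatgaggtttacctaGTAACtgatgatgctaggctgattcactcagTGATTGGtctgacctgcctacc
H2-Oa: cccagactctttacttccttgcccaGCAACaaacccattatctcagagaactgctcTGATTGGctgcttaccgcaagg
H2-Ob: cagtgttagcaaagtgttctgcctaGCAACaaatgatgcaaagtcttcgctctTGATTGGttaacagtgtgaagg
The stretches lie at chr17:34287852-34287929 on the minus strand for H2-Aa and, on the plus strand, at chr17:34305751-34305827 for H2-Eb1, chr17:34153072-34153149 for H2-DMb1, chr17:34092278-34092355 for H2-Oa and chr17:34238793-34238867 for H2-Ob. The elements stood 23 to 26 bases apart, and TGATTGG began 45 to 63 bases before the start. Searched on both strands, GNAAC followed by TGATTGG 20 to 40 bases later occurred in 0.572% of the 32851 windows of this length in the table. TGATTGG alone was in 7.82% and GNAAC alone in 84.8%. Both H2-DMa windows hold GNAAC and neither holds TGATTGG, which says only that these letters are not in them.

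Values are CPM, a gene's reads scaled so that each library sums to 1000000, and the libraries held 14076330 to 19722321 reads, recovered from the deposited values. A count of 0 allows up to 3 reads, or 0.152 to 0.213 CPM depending on the library, for counting error only. Fold changes were tested with limma on log2(CPM + 1) over 12881 genes, with an adjusted p under 0.05 as the threshold, and are given with their standard errors (SE). The labelled cell type was checked with 9 T cell markers, which summed to between 4260 and 7060 CPM, and Cd3e, a chain of the CD3 complex, lay between 406 and 805 CPM. Cd3e was lowest in the monoclonal non-Treg libraries, at 454 and 406 CPM. Those libraries also had the most dendritic cell transcripts: 10 markers summed to 1811 and 2052 CPM there, 483 and 429 CPM in their Treg counterparts, and no more than 47.0 CPM in any polyclonal library. Scaling the libraries to their CD3 genes moved the median log2 fold change of all genes by -0.53 in the monoclonal Treg comparison, so smaller changes there depend on the scaling. In bulk samples, a different number of cells of some type and a different amount of RNA per cell cannot be told apart.

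Class II transcripts were abundant in the monoclonal libraries and scarce in the polyclonal ones. Together the 9 members summed to 6755 and 5064 CPM in Treg and 19479 and 21852 CPM in non-Treg libraries of monoclonal mice (replicate A, then B, here and below). In polyclonal mice they summed to 141 and 163 CPM in Treg and 219 and 265 CPM in non-Treg libraries. The 4 groups did not overlap. The plot of each member by library shows this order for Cd74 and the 3 classical chains, and another order among the polyclonal groups for H2-Ob.

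**Figure D1:**
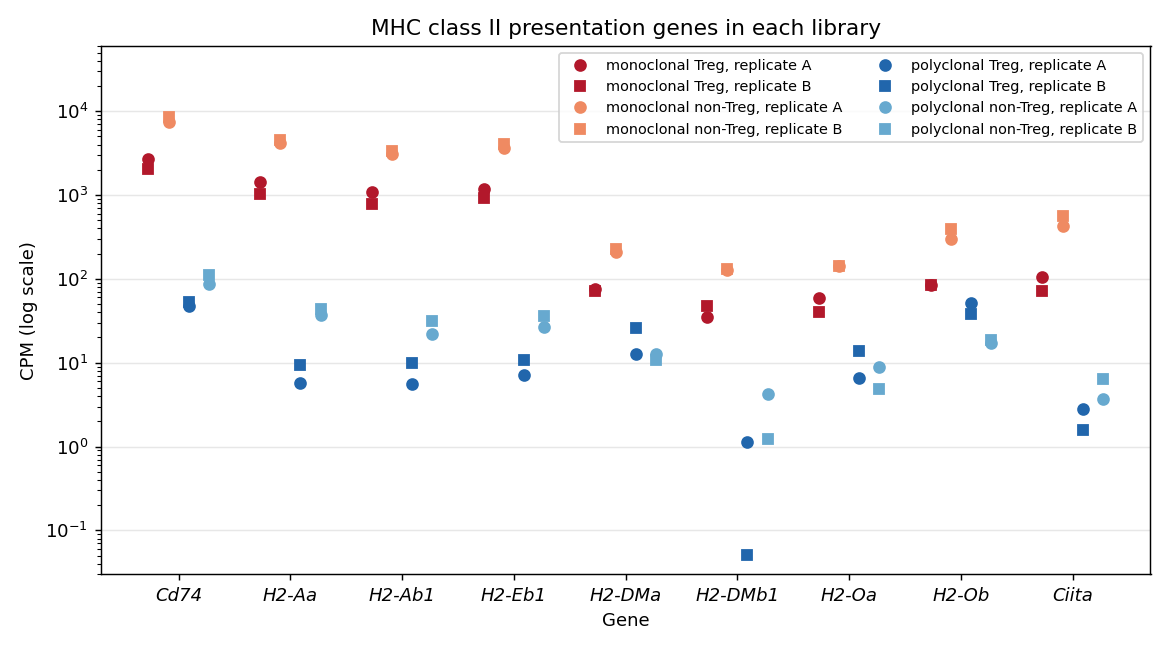
CPM (log axis) of the 9 members in each of the 8 libraries, with colours for the groups and circles and squares for replicates A and B. All members are highest in monoclonal non-Treg libraries, Cd74 at 7342 and 8497 CPM, while H2-Ob at 50.9 and 38.3 CPM in polyclonal Treg lies above its 17.03 and 18.8 CPM in polyclonal non-Treg libraries.

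The classical chains came first in level after Cd74 in the monoclonal cells. H2-Aa, the I-A α chain (NM_010378, chromosome 17, 34419696 to 34424716, minus strand), measured 1441 and 1037 CPM in Treg and 4219 and 4515 CPM in non-Treg libraries of monoclonal mice, against 5.75 and 9.33 CPM in Treg and 36.9 and 44.2 CPM in non-Treg libraries of polyclonal mice. H2-Ab1, its β chain partner (NM_207105, 34400172 to 34406363, plus strand), measured 1096 and 772, 3116 and 3343, 5.61 and 9.99, and 22.3 and 31.8 CPM in the same order. H2-Eb1, the I-E β chain (NM_010382, 34442812 to 34453619, plus strand), measured 1183 and 919, 3596 and 4042, 7.18 and 10.7, and 26.9 and 36.1 CPM. All 3 genes ordered the groups alike, with no overlap between any of them. The I-E α chain, listed as the pseudogene H2-Ea-ps, had 0 reads in all 8 libraries, so the β chain H2-Eb1 was transcribed next to an α chain gene with no read. The classical chains differ in sequence between mouse strains, and no source used here says how reads of NOD alleles were counted against mm9, which limits comparison of their levels with each other.

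Cd74 (NM_001042605, plus strand) measured 2676 and 2023 CPM in Treg against 7342 and 8497 CPM in non-Treg libraries of monoclonal mice. In polyclonal mice it measured 47.9 and 52.8 CPM against 86.4 and 110 CPM. Its mean was the highest of the members in every group, per length as well. In polyclonal Treg replicate A, however, H2-Ob was above it in CPM, at 50.9 against 47.9. The microRNA gene Mir5107 lies within Cd74 in the table and had up to 65.7 CPM, also highest in monoclonal non-Treg libraries, so some reads of the locus were listed under it.

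The peptide-editing genes were lower than the classical chains in the monoclonal libraries, but in polyclonal Treg libraries H2-DMa was above them. H2-DMa (NM_010386, 34259777 to 34276046, plus strand) measured 75.4 and 71.0 CPM in Treg against 209 and 226 CPM in non-Treg libraries of monoclonal mice, and 12.8 and 26.1 against 12.7 and 10.9 CPM in polyclonal mice. The polyclonal groups nearly touched, since both replicates A were within 1 CPM of each other. H2-DMb1 (NM_010387, 34290136 to 34297174, plus strand) measured 34.8 and 47.9 against 128.9 and 132 CPM in monoclonal mice, and 1.14 and 0.0507 against 4.18 and 1.23 CPM in polyclonal mice. In polyclonal Treg replicate B that was 1 read, and the group's total was 17 reads. The near-identical copy H2-DMb2 was also low in polyclonal libraries, at no more than 1.56 CPM, and no source used here says how reads shared by the copies were assigned, so both are uncertain.

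The inhibitor pair H2-O departed from this order. H2-Ob, the β chain (NM_010389, 34375850 to 34382853, plus strand), measured 85.5 and 83.6 CPM in Treg against 297 and 388 CPM in non-Treg libraries of monoclonal mice, and 50.9 and 38.3 against 17.03 and 18.8 CPM in polyclonal mice. Its polyclonal Treg libraries were both above the polyclonal non-Treg ones, the opposite of the classical chains. H2-Oa, the α chain (NM_008206, 34229324 to 34232179, plus strand), measured 59.5 and 39.8 against 142 and 144 CPM in monoclonal mice and 6.54 and 13.8 against 8.80 and 4.84 CPM in polyclonal mice, where the groups overlapped. BC051537 lies on the opposite strand over H2-Oa and had at most 23 reads in a library. The libraries kept strand information, but no source used here says whether the counting used it.

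Ciita (NM_001243760, chromosome 16, 10480165 to 10527657, plus strand) measured 104 and 71.1 CPM in Treg against 429 and 565 CPM in non-Treg libraries of monoclonal mice, and 2.84 and 1.57 against 3.67 and 6.39 CPM in polyclonal mice, with no overlap between groups. Ciita is known to start from separate promoters in dendritic cells, in B cells and after interferon-γ. The table lists 1 transcript per gene, so the promoters cannot be told apart.

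Per kilobase of the listed transcript, the order of the members differed between the mice. In monoclonal non-Treg libraries Cd74 came first at 5641 ± 582 CPM per kb (SD, n = 2 here and below), then H2-Aa at 4112 ± 197, H2-Ab1 at 2725 ± 136 and H2-Eb1 at 2299 ± 190. H2-Oa, H2-DMa and H2-Ob followed at 137 ± 0.907, 132 ± 7.27 and 129 ± 24.3 CPM per kb, within their spread of each other, and H2-DMb1 and Ciita came last at 102 ± 1.75 and 93.1 ± 17.9, also within theirs. Monoclonal Treg libraries had the same first 4. In polyclonal Treg libraries H2-Ob came second after Cd74, at 16.8 ± 3.35 against 35.9 ± 2.49 CPM per kb. H2-DMa at 11.8 ± 5.69 and H2-Oa at 9.78 ± 4.96 came next, and H2-Aa, H2-Ab1 and H2-Eb1 at 7.10 ± 2.38, 6.58 ± 2.61 and 5.40 ± 1.52, with neighbours from H2-Ob to H2-Eb1 within their spread. H2-DMb1 and Ciita were at 0.465 ± 0.602 and 0.413 ± 0.168 CPM per kb. Polyclonal non-Treg libraries kept Cd74 and the classical chains on top, at 70.1 ± 12.1, 38.2 ± 4.83, 22.8 ± 5.66 and 19.0 ± 3.94 CPM per kb, with H2-DMa, H2-Ob and H2-Oa between 6.54 and 7.16.

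The make-up of the family within a library shows the same shift. Relative to H2-Aa in the same library, H2-Ab1 lay between 0.738 and 0.760 and H2-Eb1 between 0.821 and 0.895 in the 4 monoclonal libraries, and between 0.604 and 1.07 and between 0.729 and 1.25 in the 4 polyclonal ones. The proportions of the classical chains thus varied far less than their levels. H2-Ob per H2-Aa was 0.0593 to 0.0860 in monoclonal libraries, 0.461 and 0.427 in non-Treg libraries of polyclonal mice and 8.85 and 4.11 in their Treg libraries. H2-DMa per H2-Aa was 0.0496 to 0.0685 in monoclonal libraries and 0.247 to 2.79 in polyclonal ones, and H2-Oa per H2-Aa 0.0318 to 0.0413 and 0.110 to 1.48. Cd74 per H2-Aa was 1.74 to 1.95 in monoclonal libraries, 2.34 and 2.50 in non-Treg libraries of polyclonal mice, and 8.32 and 5.66 in their Treg libraries. H2-DMb1 per H2-Aa overlapped between the mice, at 0.0241 to 0.0462 and 0.00543 to 0.198, and so did Ciita, at 0.0686 to 0.125 and 0.0995 to 0.494.

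**Figure D2:**
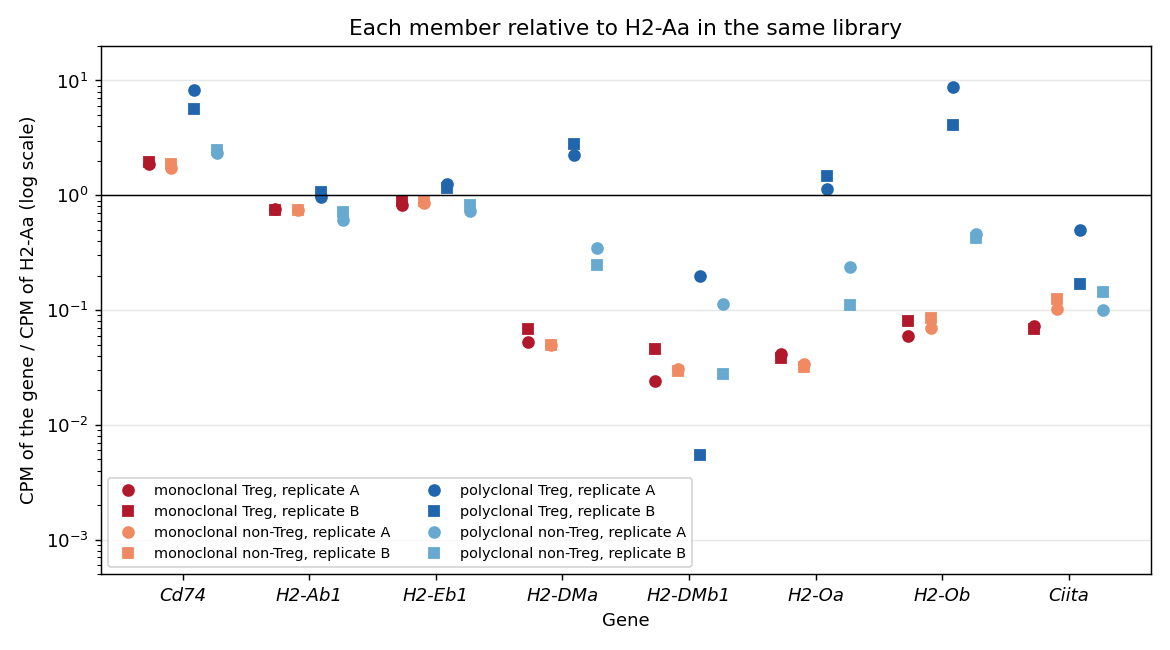
CPM of 8 members divided by the CPM of H2-Aa in the same library (log axis), colours for groups and symbols for replicates. H2-Ab1 and H2-Eb1 stay between 0.604 and 1.25 in all 8 libraries, while H2-Ob runs from 0.0593 in a monoclonal Treg to 8.85 in a polyclonal Treg library.

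The comparison of Treg with non-Treg cells in monoclonal mice asks how cells with the same receptor differ by fate. All 9 members fell in monoclonal Treg libraries, and Ciita fell furthest. Among all genes tested 13.6% were lower and 10.8% higher (limma), and the median log2 fold change was -1.81 over the 9 members and -0.02 over all genes. Cd74 changed by -1.76 ± 0.15 (adjusted p = 2.46e-06), and H2-Aa, H2-Ab1 and H2-Eb1 by -1.84 ± 0.19, -1.81 ± 0.23 and -1.87 ± 0.19. The editing genes H2-DMa and H2-DMb1 changed by -1.56 ± 0.25 and -1.65 ± 0.42, and their inhibitors H2-Oa and H2-Ob by -1.53 ± 0.33 and -1.99 ± 0.18. Ciita changed by -2.50 ± 0.29 (adjusted p = 3.08e-05), a mean level 5.66 times lower in Treg libraries. The H2-DMb1 call (adjusted p = 0.0101) was lost in DESeq2 (adjusted p = 0.342), with a pseudocount of 0.25 CPM (0.0758), and without monoclonal Treg replicate A (0.0679) or monoclonal non-Treg replicate A (0.0830) or B (0.111). The H2-Oa call (adjusted p = 0.00364) was lost without monoclonal non-Treg replicate B (0.0599).

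Markers of antigen-presenting cells moved in the same direction. Of 10 dendritic cell markers 8 fell in monoclonal Treg libraries, with Itgax, the integrin CD11c, at -2.16 ± 0.37, the growth factor receptor Flt3 at -2.22 ± 0.26 and Siglech, a lectin of plasmacytoid dendritic cells, at -2.45 ± 0.43, and the chemokine receptor Ccr9 at -1.84 ± 0.29. The median of the list was -1.94. Of 9 macrophage and monocyte markers 3 fell, the lysosomal protein Cd68 at -1.40 ± 0.27, the growth factor receptor Csf1r at -1.25 ± 0.28 and Emr1, which encodes F4/80, at -1.90 ± 0.34. The list summed to 285 and 173 CPM in Treg against 430 and 483 CPM in non-Treg libraries. The 12 B cell markers summed to 80.0 and 50.9 against 279 and 314 CPM, and 6 of 8 tested fell, but Cd22 made up most of that sum at 202 and 245 CPM in non-Treg libraries. The B cell genes Ms4a1, Pax5 and Ebf1 had no read in monoclonal Treg libraries and stayed under 1 CPM in monoclonal non-Treg ones. Relative to Itgax in the same library, Cd74 was 10.9 and 8.39 in Treg and 7.64 and 6.89 in non-Treg libraries, and H2-Ob was 0.350 and 0.347 against 0.309 and 0.315. The part of dendritic cell transcripts in these class II differences was not tested.

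**Figure D3:**
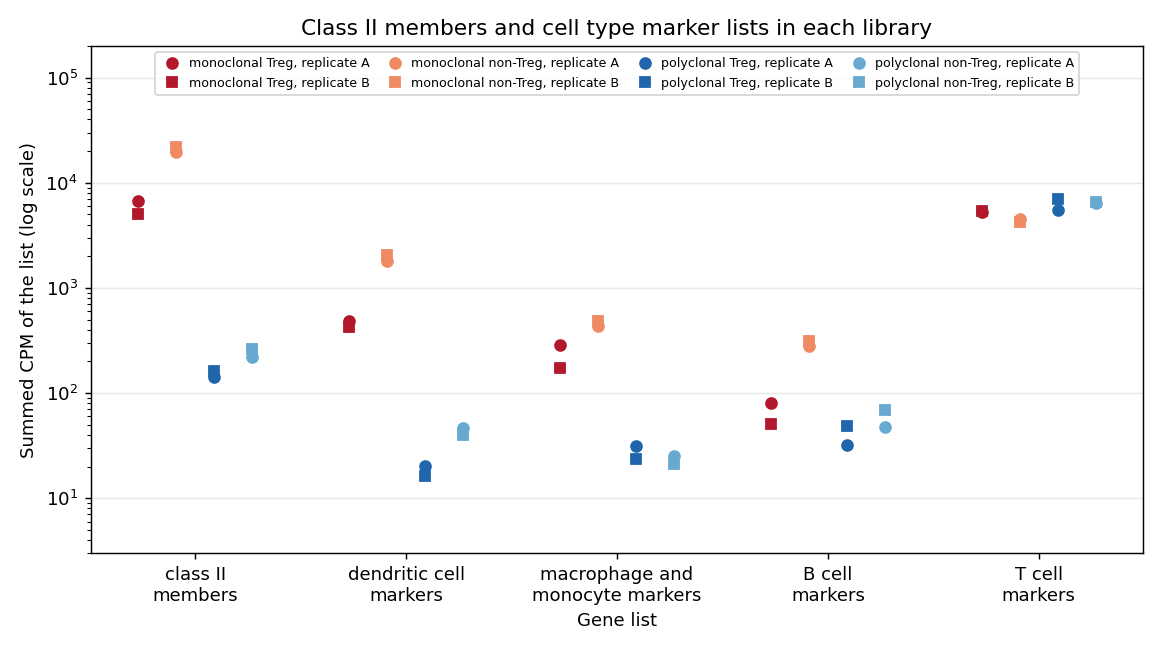
Summed CPM (log axis) of the 9 class II members and of the marker lists in each library, colours for groups and symbols for replicates. The class II and dendritic cell sums are highest in monoclonal non-Treg libraries (19479 to 21852 and 1811 to 2052 CPM), and the T cell sum stays between 4260 and 7060 CPM.

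In polyclonal mice, where Treg and non-Treg cells carry many receptors, the family did not move together. Cd74 and the classical chains fell in Treg libraries, H2-Ob rose, and the other 4 members did not pass the test. Thus 4 of 9 were lower and 1 higher, where 3.28% of all genes were lower and 4.63% higher (limma), and the median log2 fold change was -0.94 over the members and 0.00 over all genes. H2-Aa changed by -2.31 ± 0.19 (adjusted p = 3.15e-06), H2-Ab1 by -1.70 ± 0.23, H2-Eb1 by -1.72 ± 0.19 and Cd74 by -0.94 ± 0.15 (adjusted p = 0.00105). H2-Ob changed by 1.26 ± 0.18 (adjusted p = 0.000400), a mean level 2.49 times higher in Treg libraries. Its value lay between 1.06 and 1.46 and stayed called in each of the 17 alternatives tried. H2-DMa was at 0.60 ± 0.25 (adjusted p = 0.215, 95% interval 0.05 to 1.14) and was called only without polyclonal Treg replicate A, at 1.08 (adjusted p = 0.00227). H2-Oa was at 0.48 ± 0.33 (interval -0.22 to 1.19), H2-DMb1 at -1.18 ± 0.42 (adjusted p = 0.117) and Ciita at -0.90 ± 0.29 (adjusted p = 0.0782). Ciita was called by DESeq2 at -1.24 (adjusted p = 0.00284) and without polyclonal Treg replicate A at -1.19 (0.0227). H2-DMb1 was called without that library at -1.69 (0.0228) and without polyclonal non-Treg replicate B at -1.79 (0.0372).

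**Figure D4:**
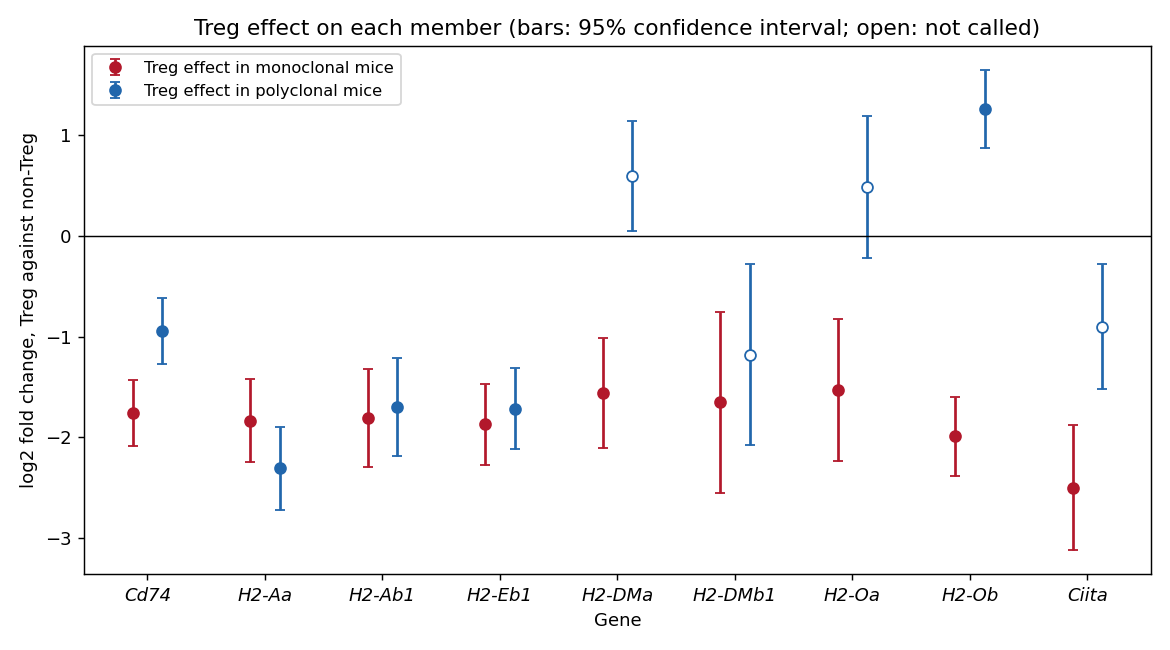
Log2 fold change of Treg against non-Treg libraries for each member, with 95% confidence intervals from limma, monoclonal mice in red and polyclonal mice in blue, and open symbols where the adjusted p was 0.05 or more. All red points lie between -2.50 and -1.53, while the blue points run from -2.31 for H2-Aa to 1.26 for H2-Ob.

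Marker levels beside these results were low. Dendritic cell markers summed to 20.3 and 16.3 CPM in Treg against 47.0 and 39.9 CPM in non-Treg libraries. In limma 2 of 10 fell, Flt3 at -1.38 ± 0.26 and Siglech at -2.35 ± 0.43, while edgeR on the recovered reads called 5 lower. Clec9a, Batf3 and Clec10a had no read in polyclonal Treg libraries. Itgax was at -1.10 ± 0.37 (adjusted p = 0.113). Of the macrophage and monocyte markers 0 passed the test in limma, edgeR or DESeq2, and 1, Csf1r at 0.61 ± 0.28, had an unadjusted p under 0.05 in limma. B cell markers summed to 32.3 and 48.6 CPM in Treg and 48.0 and 69.1 CPM in non-Treg libraries, with Cd79b higher in Treg at 2.05 ± 0.45 and Cd22 lower at -1.12 ± 0.23, while Ms4a1, Pax5 and Ebf1 were under 1 CPM in all 4 polyclonal libraries. H2-Ob stood at 50.9 and 38.3 CPM in the libraries with the lowest dendritic cell sum. Relative to Itgax it was 6.03 and 18 there, against 1.63 and 1.73 in the non-Treg libraries of these mice. Itgax had only 119 and 42 reads in these Treg libraries, so ratios to it are uncertain. Cd74 per Itgax was 5.66 and 24.8 in Treg against 8.27 and 10.1 in non-Treg libraries. H2-Aa per Itgax was 0.681 and 4.38 against 3.53 and 4.05, so both of these ratios overlapped. The part of these markers in the polyclonal differences was not tested.

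The difference of the Treg effects, monoclonal minus polyclonal, was tested directly. In limma it was lower for 5 of 9 members and higher for 0, while edgeR called 3 lower and DESeq2 5. Neither edgeR nor DESeq2 called a member higher. At an unadjusted p under 0.05, limma and edgeR each had 5 lower and 0 higher, and DESeq2 had 5 lower and 1 higher. Among all genes tested 5.56% were lower and 3.64% higher. H2-Ob differed by -3.25 ± 0.26 (adjusted p = 1.19e-05), since it fell in monoclonal and rose in polyclonal Treg libraries. H2-DMa differed by -2.15 ± 0.36 (adjusted p = 0.00223), H2-Oa by -2.02 ± 0.46 (0.0144), Ciita by -1.60 ± 0.41 (0.0255) and Cd74 by -0.82 ± 0.22 (0.0299). The classical chains gave no call: H2-Aa was at 0.47 ± 0.27 (95% interval -0.11 to 1.06), H2-Ab1 at -0.11 ± 0.32 (-0.80 to 0.57) and H2-Eb1 at -0.15 ± 0.26 (-0.72 to 0.41). H2-DMb1 was at -0.47 ± 0.59. Across the 16 alternatives H2-Ob and H2-DMa kept their calls, with adjusted p up to 0.00323 and 0.0368. The Cd74 and Ciita calls were each lost in 7 of them, with adjusted p up to 0.198 and 0.210, and H2-Oa in 5, up to 0.109. Leaving out monoclonal non-Treg replicate B gave the highest of these for all 3 genes. H2-Aa was called only without polyclonal Treg replicate B, at 0.78 (adjusted p = 0.0293).

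Monoclonal against polyclonal cells of the same fate gave the largest differences of the family. The median over the 9 members was 4.80 in Treg and 6.32 in non-Treg cells, against -0.03 and -0.07 over all genes. All 9 members were higher in monoclonal Treg than in polyclonal Treg libraries, where 12.1% of all genes were higher and 12.1% lower (limma). H2-Aa, H2-Ab1 and H2-Eb1 were 164, 120 and 117 times higher in mean CPM, with log2 fold changes of 7.19 ± 0.19, 6.76 ± 0.23 and 6.73 ± 0.19, and Cd74 was 46.7 times higher at 5.50 ± 0.15 (adjusted p = 1.47e-11 for H2-Aa, H2-Eb1 and Cd74). Ciita was 39.8 times higher at 4.79 ± 0.29. H2-DMb1 was 69.6 times higher at 4.80 ± 0.42, with 17 reads behind its polyclonal level. H2-Oa and H2-DMa were 4.87 and 3.77 times higher, and H2-Ob only 1.90 times, at 0.92 ± 0.18 (adjusted p = 0.00200). That H2-Ob call was lost when the libraries were scaled to the CD3 genes, at 0.83 (adjusted p = 0.0552).

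In non-Treg cells all 9 members were again higher in the monoclonal libraries, where 12.1% of all genes were higher and 7.35% lower (limma). H2-Eb1, H2-Ab1 and H2-Aa were 121, 120 and 108 times higher in mean CPM, Ciita 98.8 times and Cd74 80.5 times. H2-DMb1 was 48.3 times higher, with 85 reads behind its polyclonal level. H2-Oa, H2-Ob and H2-DMa were 21.0, 19.1 and 18.4 times higher, at 4.25 ± 0.33, 4.17 ± 0.18 and 4.10 ± 0.25 on the log2 scale. Dendritic cell markers moved with these differences, with 8 of 10 higher in monoclonal Treg and 9 of 10 in monoclonal non-Treg libraries, Itgax at 5.49 ± 0.37 and 6.54 ± 0.37. Their part was not tested. The mouse comparisons and the Treg comparisons share libraries, so they do not support each other.

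The genes around the family followed it in part. Of 10 regulators of class II genes, 3 fell and 2 rose in monoclonal Treg libraries, with a median of -0.24. In polyclonal ones 2 rose, with a median of 0.08. Of all genes tested, 13.6% fell and 10.8% rose in the monoclonal comparison, and 3.28% and 4.63% in the polyclonal one (limma). Scaled to the CD3 genes, 6 regulators were lower and 0 higher in the monoclonal comparison. Under that scaling 4427 of all 12881 genes were lower and 411 higher there. In the polyclonal comparison 1 regulator was then higher, beside 352 of all genes. Rfx5, a subunit of the RFX complex that binds the X box, measured 73.4 and 63.0 CPM in Treg against 104 and 113 CPM in non-Treg libraries of monoclonal mice, and 128 and 101 against 57.8 and 70.6 CPM in polyclonal mice. Like H2-Ob it was lower in monoclonal Treg (-0.67 ± 0.17) and higher in polyclonal Treg (0.82 ± 0.17, a call lost with CD3 scaling at 0.84), and the effects differed by -1.49 ± 0.24 (adjusted p = 0.00148). Unlike H2-Ob it was lower in monoclonal than in polyclonal Treg libraries, at -0.73 ± 0.17. Irf8, a transcription factor of dendritic and B cells, fell by 1.74 in monoclonal Treg libraries and was at 0.68 ± 0.24 in polyclonal ones (adjusted p = 0.116). Irf4, another regulator of the list, was at -0.29 ± 0.16 in monoclonal Treg libraries with no call (adjusted p = 0.210) and was called higher in polyclonal ones. The difference of the Treg effects was called lower for Irf4 and Irf8 too, so this was not particular to Rfx5. Spi1, the myeloid and B cell factor PU.1, measured 41.1 to 152 CPM in monoclonal and 0.862 to 3.23 CPM in polyclonal libraries. The NF-Y genes Nfya and Nfyc and the other RFX genes Rfxank and Rfxap gave no call in either Treg comparison, while Nfyb at 0.80 ± 0.16 and the X box factor Creb1 at 0.57 ± 0.15 rose in monoclonal Treg libraries, both calls being lost with CD3 scaling (0.23 and -0.00297).

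Of 9 genes of class II processing and turnover, 7 fell and 1 rose in monoclonal Treg libraries, with a median of -1.46. The shares of all genes there were 13.6% lower and 10.8% higher (limma). Ifi30, the thiol reductase GILT that opens disulfide bonds of antigens, fell by 1.46, and Ctsh, a lysosomal cathepsin, by 1.77. March1, the ubiquitin ligase that removes surface class II, fell by 1.64 and had no read in polyclonal Treg libraries. In polyclonal Treg libraries 2 rose and 2 fell, with a median of -0.27, where 4.63% of all genes rose and 3.28% fell. Ctss, the protease that trims the invariant chain, rose there by 0.60 ± 0.17, after falling by 0.67 in monoclonal Treg libraries. Lgmn, an asparaginyl endopeptidase, rose by 0.83 ± 0.22 in polyclonal and by 0.66 ± 0.22 in monoclonal Treg libraries. With CD3 scaling none of these rises was called, although the polyclonal ones kept their size (0.62 for Ctss and 0.84 for Lgmn) and the monoclonal rise of Lgmn was 0.10. Of the cathepsins with the highest levels, Ctsb fell by 0.50 in monoclonal Treg libraries and was at 0.34 ± 0.16 in polyclonal ones, and Ctsd was at 0.04 ± 0.18 and -0.47 ± 0.18 with no call. The neighbouring class II genes H2-Eb2 and H2-DMb2 fell in monoclonal Treg libraries, by 1.76 and 1.28, and neither passed the test in polyclonal ones.

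MHC class I genes, which present to CD8 T cells, gave a direction that depended on the scaling. Of 7 class I genes, 4 rose and 0 fell in monoclonal Treg libraries in limma, with a median of 0.39. At an unadjusted p under 0.05, 6 were higher and 0 lower. The shares of all genes were 10.8% higher and 13.6% lower in that comparison. Scaled to the CD3 genes, however, 0 of the 7 were called and their median was -0.18. H2-D1, a classical heavy chain with near-identical relatives in the table, was at 0.76 ± 0.13, H2-K1, another heavy chain, at 0.39 ± 0.13, their partner B2m at 0.71 ± 0.15 and Nlrc5, the class I counterpart of Ciita, at 0.65 ± 0.12. With CD3 scaling these were 0.19, -0.18, 0.14 and 0.08. In polyclonal Treg libraries 0 of the 7 passed the test in limma or edgeR and 3 were higher in DESeq2, with a median of 0.32 and with 4 at an unadjusted p under 0.05 in limma.

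The 10 genes whose pattern was most like the mean log2 level of the 9 members over the 8 libraries had Pearson's r of 0.997 to 0.999, among 10160 genes ranked. They included Ffar2, Ly86, Ppfia4, Adam23, Ptpro, Gpr141, Nlrp3, Nxpe5 and Lyn. Ffar2, a receptor of short-chain fatty acids, measured 137.9 and 166 CPM in non-Treg and 49.1 and 35.5 CPM in Treg libraries of monoclonal mice and at most 1.29 CPM in polyclonal ones. Lyn is a Src family kinase of myeloid cells and B cells, and Nlrp3 is an inflammasome sensor of myeloid cells. In all, 280 genes reached an r of at least 0.95. The 8 points fall into the 4 groups and share each library's composition, so these values only describe likeness. Among the members, r with their own mean was lowest for H2-Ob at 0.888, then H2-DMa at 0.961 and H2-Oa at 0.964, and at least 0.982 for the others.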

How the data were processed

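The authors deposited a single table of CPM for 8 libraries, with an mm9 position, a transcript and its length for each gene. The submitters' processing notes name these tools without their roles: edgeR, HOMER 4.7, STAR 2.4.1a, Trimmomatic 0.33, FastQC 0.10.1 and CASAVA 1.8.2. Polyadenylated RNA was captured on beads and read from a single end with strand kept, per the labels' protocols. Each library summed to 1000000, and 100% of values were whole multiples of 1 read within 0.01 read, from which reads were recovered.

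A gene was tested if 2 or more libraries reached 1 CPM. Values were taken to log2(CPM + 1) and tested with limma 3.58.1 (R 4.3.3), using its trend and robust options, 1 mean for each of 4 groups and 4 residual degrees of freedom. The 2-sided p-values were adjusted by Benjamini-Hochberg over all 12881 genes in each of 5 comparisons. The fit was tested on simulated data. The pseudocount understates changes of low genes. On the recovered reads, edgeR 4.0.16 called 973 genes higher and 1629 lower in the monoclonal Treg comparison, and DESeq2 1.42.0 was also run. Other alternatives were the scaling, pseudocount, filter, libraries fitted, a replicate block and leaving out each library.

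All 9 members are named. For the other lists the rule named the 3 genes highest in mean log2 level and a few defining markers, and for likeness the 10 genes highest in Pearson's r. Irf4, Irf8, Spi1, Nfyb, Nfyc, Rfxank, Rfxap, Ifi30, Ctsh, March1, Lgmn, Nlrc5, Pax5, Ebf1, Clec9a, Batf3, Clec10a and Zbtb46 were named after their values were seen. A few genes that the rule names are not reported here. Members and lists were chosen with earlier results of these data known.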

Additional observations from a re-analysis of the deposited data

Results flagged for a closer look

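The Treg effect of 5 members differed between monoclonal and polyclonal mice in the test of the difference itself (limma, monoclonal minus polyclonal, log2). The differences were -3.25 for H2-Ob, -2.15 for H2-DMa, -2.02 for H2-Oa, -1.60 for Ciita and -0.82 for Cd74. H2-Ob changed direction, with both monoclonal Treg libraries below the non-Treg ones and both polyclonal Treg libraries above them. H2-DMa and H2-Oa fell in monoclonal Treg libraries and gave no call in polyclonal ones. Groups of 2 libraries are too small for a check of single outlying libraries.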

How the results depend on the processing

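Of 756 member values under the alternatives, 711 kept their direction and side of the threshold, 26 lost a call, 6 gained one and 13 changed sign, none of them from a called value. H2-Ob in polyclonal Treg cells and the differences of H2-Ob and H2-DMa kept their calls throughout. Scaled to the CD3 genes, limma called 411 genes higher and 4427 lower in the monoclonal Treg comparison (1396 and 1747 as reported), 352 and 210 in the polyclonal one (596 and 422), 85 and 1632 for the difference (469 and 716), 996 and 949 for monoclonal against polyclonal Treg (1553 and 1563) and 2652 and 130 for non-Treg cells (1558 and 947). Of the genes called, the share that was higher moved with that scaling from 44.4% to 8.50%, from 58.5% to 62.6%, from 39.6% to 4.95%, from 49.8% to 51.2% and from 62.2% to 95.3%, in the same order. TMM moved none of the median log2 fold changes of all genes by more than 0.08. Fitting only the libraries compared gave 269 lower in the polyclonal Treg comparison, 970 higher and 751 lower between Treg cells and 2225 lower between non-Treg cells. Without a filter the difference had 289 higher and 467 lower genes, and edgeR gave 551 lower genes between non-Treg cells. Of the 5 members called in the difference, edgeR called 3 and the fit without a filter 2.

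Values that changed sign were, for the difference, H2-Aa at -0.12 with CD3 scaling and H2-DMb1 at 0.64 in edgeR, 0.51 in DESeq2 and 0.31 with a pseudocount of 0.25 CPM. With 1 library left out, where the lone sample is assumed to vary like the other groups, the difference ran from -0.48 to 0.25 for H2-Ab1, -0.42 to 0.11 for H2-Eb1 and -1.08 to 0.14 for H2-DMb1, and H2-Oa in polyclonal Treg cells from -0.0055 to 0.97. Genes called then ran from 580 to 1743 higher and 726 to 2031 lower in the monoclonal Treg comparison, 255 to 691 and 174 to 563 in the polyclonal one, 123 to 768 and 238 to 930 for the difference, and 321 to 1474 lower between non-Treg cells. Leaving out monoclonal non-Treg replicate B gave the fewest calls in the monoclonal comparison and the difference, and polyclonal non-Treg replicate B in the polyclonal comparison. Between non-Treg cells, lower calls were fewest without polyclonal non-Treg replicate B and higher calls without monoclonal non-Treg replicate B. Members called ran from 1 to 2 higher in the polyclonal comparison, and from 0 to 1 higher and 2 to 5 lower for the difference.

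With the replicate letter as a replicate block, 1337 genes were higher and 1695 lower in the monoclonal Treg comparison, and no member call changed. The deviations of same-lettered libraries correlated by -0.093 to 0.097, so the letters were taken as names only. Depth limits H2-DMb1 most, with 17 reads in the polyclonal Treg libraries together.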
